A study of Mus musculus with 8 samples.

Results

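Transcripts of 35 genes of sterol synthesis, sterol uptake and transport, fatty acid synthesis and LXR-driven efflux were followed in mouse bone marrow-derived macrophages (BMDM) treated with sphingosine d18:1, abbreviated So(d18:1). The 35 genes were taken by name from a list of targets and partners of SREBP2, SREBP1 and LXR, by a rule that names genes rather than values, though with earlier results of these data known. All 35 occurred in the table of 55357 genes, and all 35 were among the 14514 genes with enough counts to be tested. The macrophages were grown from the marrow of C57BL/6J wild-type mice for 5-6 days in macrophage-colony stimulating factor (M-CSF), and no group carried a transgene or a deletion. The 4 treated libraries came from cells given 2 μM sphingosine in methanol for 6 h, and the 4 control libraries from cells given methanol alone for 6 h. The sample labels name no inflammatory stimulus, whereas the study's text places this experiment under inflammatory stimulation, so whether both groups also received one is unknown here. The comparison asks how So(d18:1) changes macrophage transcripts. The study calls the 4 libraries of a group biologically independent but does not say whether they came from separate mice, so the p-values measure the spread between these libraries, which may be in part technical.

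Cells make cholesterol from acetyl-CoA by way of mevalonate and squalene. When sterol in the endoplasmic reticulum is scarce, the escort protein SCAP carries SREBP2 and SREBP1 to the Golgi for cleavage, and the released factors switch on the genes of synthesis and uptake, while INSIG proteins hold SCAP back when sterol is plentiful. When sterol is in excess, oxysterols activate the nuclear receptors LXRα and LXRβ, which switch on export of cholesterol through ABCA1 and ABCG1, a programme for which macrophages are well known because they take up lipoproteins and dying cells. Sphingosine is the long-chain base of sphingolipids and is released from them in lysosomes, the compartment where NPC1 and NPC2 also handle cholesterol.

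Reads counted on genes numbered 17748397 to 26088609 per library. Levels are given as CPM, the counts divided by library size, on library sizes scaled by the TMM method, and differences as log2 fold changes of So(d18:1) against control with a standard error (SE). A gene is said to rise or fall where the adjusted p was under 0.05 in edgeR's quasi-likelihood test over all 14514 genes. The 8 macrophage marker genes summed to 30684.5 to 32909.5 CPM in control and 26544.1 to 31349.4 CPM after So(d18:1), with none at 0. Most of that sum came from Lyz2, at a mean of 20722.7 CPM in control and 18752.3 CPM after So(d18:1). Of the 8, Cd68 and Mertk fell and Itgam rose (37.5%, against 8.94% of all genes). At an unadjusted p under 0.05 in edgeR there were 6 of the 8 (23.4% of all genes, either direction), and 7 of the 8 had a log2 fold change below 0. The control libraries resembled each other in pairs: the chi-square per gene between counts was 2.84 for control 1 against 2 and 3.93 for control 3 against 4. Across the pairs it was 6.06 to 13.1. The So(d18:1) libraries were uneven too, at 2.81 for 1 against 3 and 5.73 to 7.88 for the other pairs. The 7 neutrophil markers summed to 1629 to 2241 CPM in control, highest in control 3 and 4. After So(d18:1) they summed to 1273 to 1456 CPM. Of the 7, S100a8 and S100a9 fell (28.6%, against 5.07% of all genes). All 7 were lower at an unadjusted p under 0.05 in edgeR (23.4% of all genes, either direction). In 6 of the 7 the groups did not overlap (7.87% of all genes were lower in this way). The summed lymphocyte markers were at 4.06 to 6.75 CPM in control and 2.49 to 3.42 CPM after So(d18:1), where Nkg7 fell, and the summed erythroid and megakaryocyte markers at 209.9 to 238.7 and 338.8 to 411.7 CPM, nearly all of it from the platelet factor gene Pf4, which rose, while the megakaryocyte gene Itga2b differed by -0.61 on the log2 scale (adjusted p = 0.149, edgeR). Where leaving out either control pair changed a call, or moved a called value by over 1.5 times, the values without it are given below, an alternative added after the data had been seen.

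Most of the 35 genes changed little. 3 of the 35 fell, Npc1, Nr1h3 and Mylip, and none rose, a share of 8.57% against 8.94% of all genes tested. For falls alone the share of all genes was 5.07%, and for rises, at 0 of 35 genes, it was 3.87%. At an unadjusted p under 0.05 there were 14 of the 35 genes against 23.4% of all genes, and the count of 3 became 5 in the Wald test of DESeq2, 5 in edgeR's likelihood ratio test and 3 in limma-voom. The median log2 fold change of the 35 genes was -0.03 beside 0.0036 over all genes, and the median of its absolute size was 0.13 beside 0.11. For 30 of the 35 genes (85.7%, against 72.6% of all genes) the 95% interval excluded a 1.5-fold change in either direction, and the exceptions were Fdps, Nr1h3, Abcg1, Mylip and Scd1. In 10 genes the libraries of the groups did not overlap (28.6%, against 15% of all genes), with Pmvk and Scap higher in So(d18:1) (7.14% of all genes were so) and Hmgcs1, Idi1, Cyp51, Msmo1, Npc1, Nr1h3, Abcg1 and Mylip lower (7.87%). The 4 libraries per group limit an exact permutation test to a two-sided p of 0.0286 or more. Groups that do not overlap always give that smallest value, so the test adds nothing for these 10 genes. RNA from a culture is a mixture, so fewer cells of a type and less RNA per cell cannot be told apart.

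**Figure D1:**
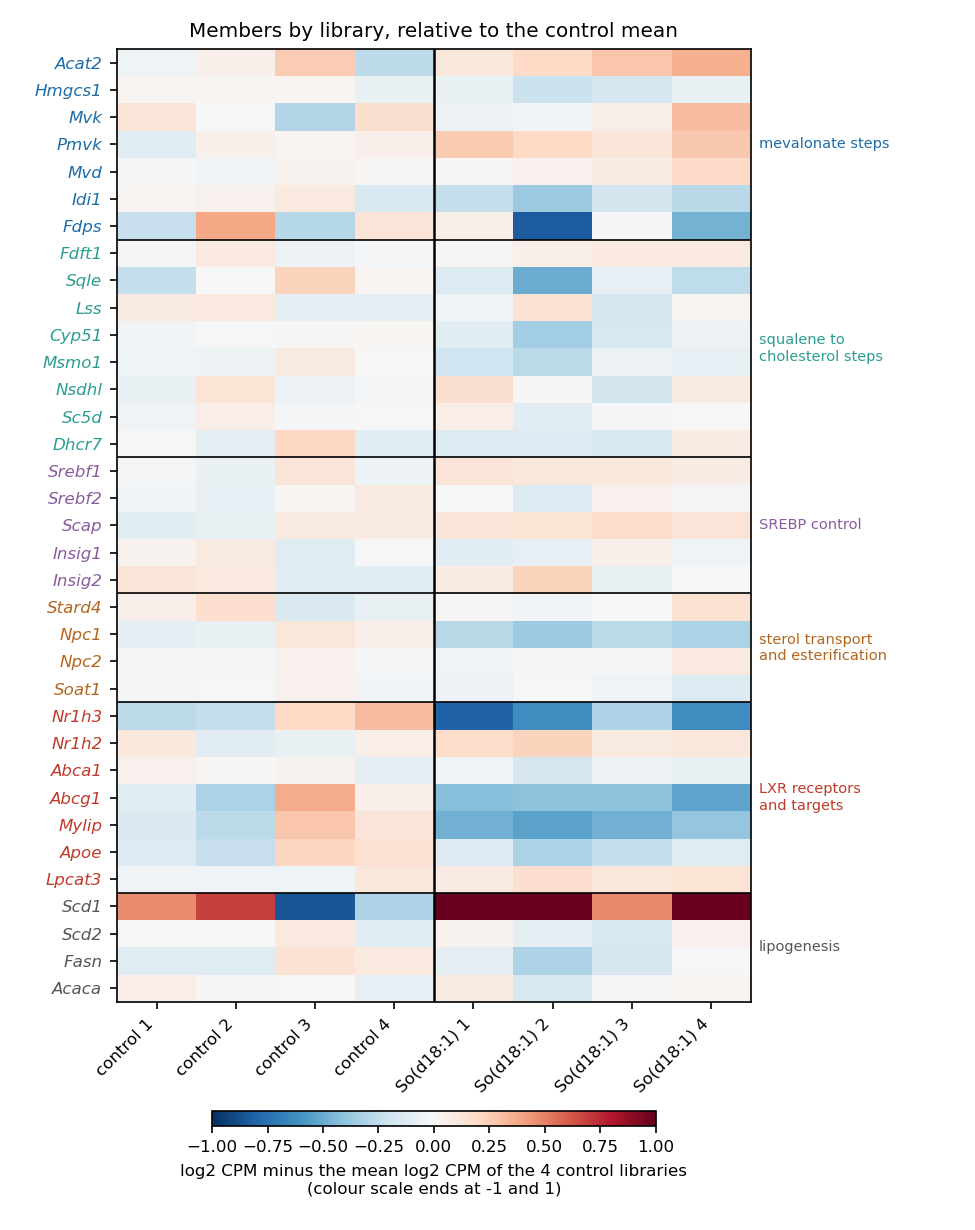
Level of each of the 35 genes (rows, by role) in each of the 8 libraries (columns), as log2 CPM minus the mean of the 4 control libraries, with red higher and blue lower. Blue fills the So(d18:1) columns for Npc1, Nr1h3, Abcg1 and Mylip, and control 3 and 4 differ from control 1 and 2 in Nr1h3, Mylip, Apoe and Scd1.

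Per gene length, in RPKM (CPM divided by length in kilobases), the 35 genes spanned a wide range of levels in control macrophages. The length is that of the merged exons of all annotated transcripts of a gene. It can exceed that of the main transcript, so comparisons of level between genes are approximate. The apolipoprotein gene Apoe was highest at 5487 RPKM, followed by Npc2 at 229.3, the exporter Abca1 at 115.5 and Soat1 at 49.4 RPKM. The control median of the 35 genes was 8.72 RPKM beside 4.70 RPKM over all genes tested. Between the receptors, Nr1h2 stood at 29.8 RPKM and Nr1h3 at 5.27 RPKM. Scd1 at 0.865 and Fdps at 0.547 RPKM were the lowest as counted. The level of Fdps is uncertain, since 26.7% of its exon bases overlap Gm43738 on the same strand. How reads on shared bases were counted is not given. Of the other genes of export and transport, Abcg1 at 7.33 and Stard4 at 10.7 RPKM lay below Npc2, Abca1 and Soat1.

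The 7 genes of the early pathway, from acetyl-CoA to farnesyl diphosphate, neither rose nor fell together. Acat2, which condenses acetyl-CoA, the kinases Mvk and Pmvk, and the decarboxylase Mvd had log2 fold changes of 0.07 to 0.23. Hmgcs1, the HMG-CoA synthase, Idi1, the isopentenyl diphosphate isomerase, and Fdps, the farnesyl diphosphate synthase, had values of -0.32 to -0.13. No gene of the 7 passed, and 3 did so at an unadjusted p under 0.05 (against 23.4% of all genes). Idi1 alone passed in DESeq2 and in edgeR's likelihood ratio test, while none passed in limma-voom. The median was 0.07.

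Idi1, which makes the activated isoprene unit, was at 15.9, 16.2, 16.8 and 14.1 CPM in the control libraries and at 13.3, 12.2, 13.9 and 12.96 CPM in the So(d18:1) libraries. Every So(d18:1) library lay below every control library, with the smallest gap between control 4 and So(d18:1) 3. The log2 fold change was -0.27 (SE 0.085, adjusted p = 0.0527, edgeR's quasi-likelihood test), and without control 4 it was -0.32 and passed (adjusted p = 0.0396, edgeR). Of its 50-base words 25.3% also occur in other genes, Gm13502 among them, and 9.22% of its exon bases overlap Gm48574 on the opposite strand, so its count carries that uncertainty.

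Fdps had the largest fold of the 7 genes and the poorest precision. It was at 1.92, 2.95, 1.85 and 2.48 CPM in control and at 2.36, 1.27, 2.24 and 1.63 CPM after So(d18:1), from 28 to 74 counts. The groups overlapped widely, and the log2 fold change of -0.32 had an SE of 0.22 (adjusted p = 0.424, edgeR). The annotation places 26.7% of its exon bases in Gm43738 on the same strand, and 26.2% of its 50-base words occur in other genes. Gm43738 itself held 0 to 1 counts, which does not show whether reads on the shared bases were counted for Fdps. That was not tested, so the level and the fold of Fdps carry this uncertainty.

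Hmgcs1, at 80.6, 80.1, 80.0 and 75.6 CPM in control and 75.6, 68.2, 70.1 and 75.5 CPM after So(d18:1), differed by -0.13 on the log2 scale (SE 0.049, adjusted p = 0.112, edgeR). Control 4 was the lowest control library and lay just above So(d18:1) 1 and 4, while So(d18:1) 2 was the lowest of all. Its promoter is shown because, of the members' windows searched, it alone held the letters TCACNCCAC. These letters are a core of the sterol regulatory element, the site bound by SREBP. The window runs from 250 bases before to 50 bases after the start of the RefSeq transcript, on the plus strand at chr13:119690101-119690400 (GRCm38.p6). Capitals mark the element's core at window position 114 and 4 inverted CCAAT boxes (ATTGG) at positions 14, 75, 206 and 261.
Hmgcs1: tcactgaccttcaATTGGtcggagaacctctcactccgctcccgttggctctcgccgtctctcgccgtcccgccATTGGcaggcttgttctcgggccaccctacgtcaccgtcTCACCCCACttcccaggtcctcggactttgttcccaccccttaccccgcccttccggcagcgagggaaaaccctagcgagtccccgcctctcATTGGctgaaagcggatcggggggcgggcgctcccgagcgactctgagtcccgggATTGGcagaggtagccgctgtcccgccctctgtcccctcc

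RefSeq promoter windows of that length were matched to 27 of the 35 genes, in 38 windows, and searched on both strands for 4 motifs. No window was matched to Fdps, Fdft1, Sqle, Stard4, Npc1, Abcg1, Scd1 or Scd2. The letters TCACNCCAC, a core of the sterol regulatory element, were found for Hmgcs1 alone, 3.70% of the 27 genes against 1.44% of the 27025 genes with a window and 1.36% of the tested genes. CCAAT, the box bound by NF-Y, was found for 20 genes (74.1%), against 41.1% of genes with a window and 42.9% of tested genes. It was present for all 6 squalene to cholesterol genes with a window (Cyp51, Lss, Msmo1, Nsdhl, Sc5d and Dhcr7) and for 5 of the 6 mevalonate genes with a window, Acat2 being the exception. CACGTG, the palindromic E-box, was found for 5 genes (18.5%, against 8.09% of genes with a window and 11.7% of tested genes), namely Abca1, Insig1, Scap, Dhcr7 and Sc5d. The strict LXR element, 2 copies of AGGTCA with 4 bases between them, was found for 0 of the 27 genes and for 0.0148% of genes with a window. A match of letters is a description of the window only, and other forms of these elements were not searched.

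The 8 genes from squalene to cholesterol gave the same picture of small differences. Fdft1, which makes squalene, Lss, which closes the ring to lanosterol, Nsdhl, Sc5d and Dhcr7 had log2 fold changes of -0.08 to 0.06. Sqle, the squalene epoxidase, and the demethylating enzymes Cyp51 and Msmo1 lay between -0.25 and -0.15. None of the 8 passed in edgeR's quasi-likelihood test, and 3 did so at an unadjusted p under 0.05 (against 23.4% of all genes). None passed in DESeq2, limma-voom or the likelihood ratio test. The median was -0.05, with 6 genes below 0 and 2 above.

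Sqle, a rate-limiting enzyme of the later pathway, was at 22.2, 26.3, 30.5 and 26.5 CPM in control and 23.9, 18.5, 24.7 and 22.0 CPM after So(d18:1). Control 1 lay among the So(d18:1) libraries, and the other control libraries lay above all of them. The log2 fold change was -0.25 (SE 0.098, adjusted p = 0.134, edgeR). It became -0.32 with an adjusted p of 0.0408 without control 1, and -0.36 with an adjusted p of 0.0206 in edgeR without both control 1 and 2, but -0.13 with an adjusted p of 0.558 without both control 3 and 4, so the reading depends on which control libraries are kept.

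Cyp51, the lanosterol demethylase, spanned 46.0 to 47.6 CPM in control and 37.0 to 44.9 CPM after So(d18:1), and Msmo1, which removes methyl groups after it, spanned 52.5 to 58.0 and 45.1 to 52.3 CPM. In neither gene did the groups overlap, and So(d18:1) 2 was the lowest library in both, as in Hmgcs1, Idi1 and Sqle. The adjusted p was 0.0914 for Cyp51 and 0.109 for Msmo1 in edgeR. Counts of Fdft1 carry doubt, since 18.3% of its exon bases overlap the cathepsin gene Ctsb on the opposite strand, which held 198886 to 320862 counts per library.

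The 5 genes that control SREBP differed little between the groups. Srebf2, the gene of the master regulator of sterol synthesis, was at 132, 127, 136 and 143 CPM in control and 135, 122, 139 and 133 CPM after So(d18:1). Its groups lay over each other, with a log2 fold change of -0.03 (SE 0.049, adjusted p = 0.783, edgeR) and a 95% interval of -0.13 to 0.07. Srebf1, which drives fatty acid synthesis and is itself an LXR target, was at 48.7, 46.8, 53.7 and 47.3 CPM in control and 53.6, 52.8, 52.6 and 51.6 CPM after So(d18:1). Control 3 reached the So(d18:1) level and the other control libraries lay below it, for a log2 fold change of 0.10 (SE 0.054, adjusted p = 0.274, edgeR).

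Scap, the sterol-sensing escort of SREBP, had the largest difference of the 5 genes. It was at 32.1, 32.8, 36.7 and 36.5 CPM in control and 37.7, 38.0, 39.0 and 37.6 CPM after So(d18:1). All So(d18:1) libraries lay above all control libraries, narrowly so above control 3 and 4, and the log2 fold change was 0.14 (SE 0.060, adjusted p = 0.160, edgeR). Insig1 and Insig2, the retention factors, differed by -0.05 and 0.06. None of the 5 passed in edgeR's quasi-likelihood test, DESeq2, limma-voom or the likelihood ratio test. Scap was the 1 gene with an unadjusted p under 0.05 (against 23.4% of all genes). Without both control 3 and 4, Scap had a log2 fold change of 0.23 with an adjusted p of 0.0435 in edgeR, while without both control 1 and 2 its value was 0.057 with an adjusted p of 0.656.

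**Figure D2:**
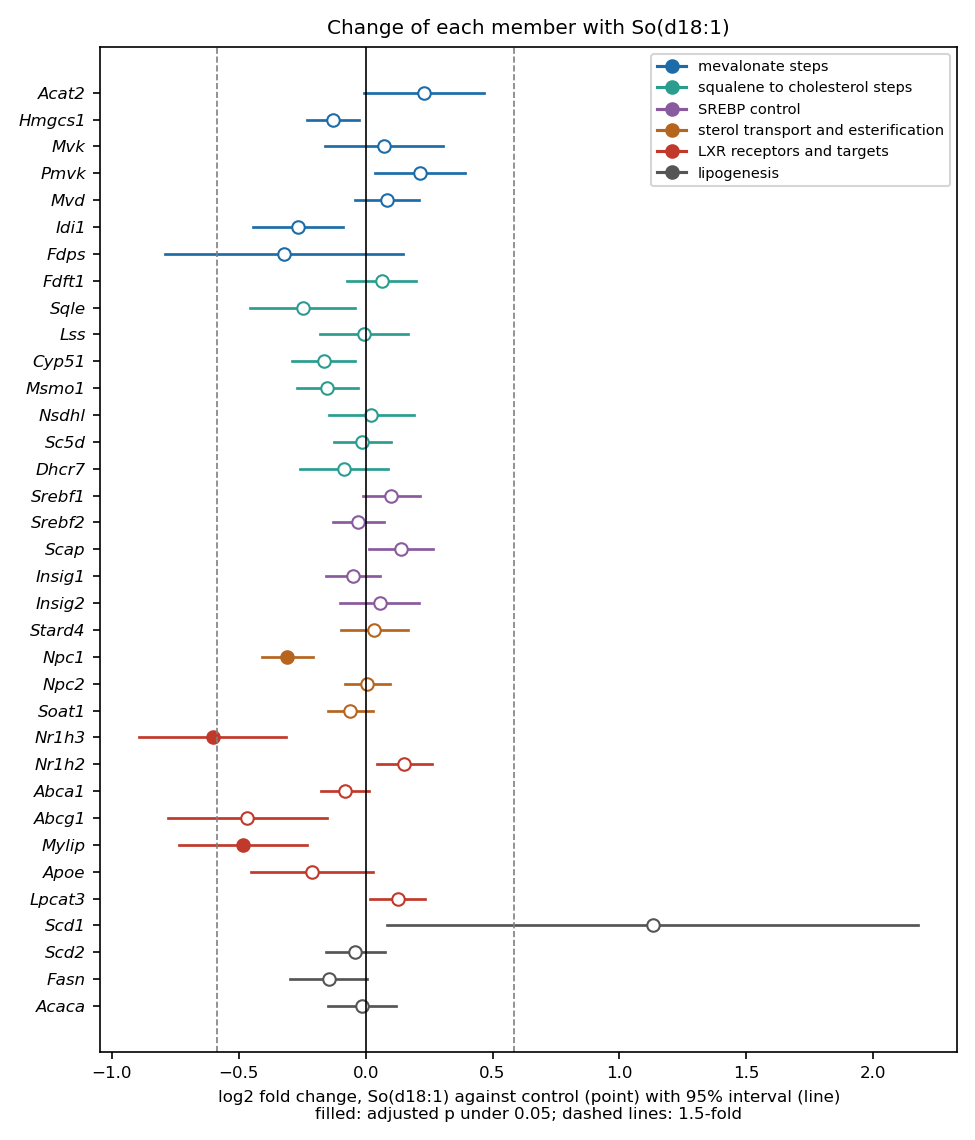
Log2 fold change of So(d18:1) against control for each of the 35 genes, by role, as a point with its 95% interval; filled points have an adjusted p under 0.05 in edgeR and the dashed lines mark a 1.5-fold change. Npc1, Nr1h3 and Mylip are filled, and Scd1 at 1.13 has the widest interval.

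Among the transport genes, Npc1 was the clearest change of the list. It encodes the membrane protein that moves cholesterol out of the lysosome together with the soluble carrier Npc2. Npc1 was at 283, 287, 327 and 312 CPM in control and at 249, 234, 251 and 242 CPM after So(d18:1). Every So(d18:1) library lay well below the lowest control library, and the spread among So(d18:1) libraries (SD 7.49 CPM) was below that among control libraries (SD 20.7 CPM). Npc1 fell by 0.31 on the log2 scale (SE 0.048, adjusted p = 0.00023, edgeR), from 302.4 to 244.0 CPM on average. It fell in all 8 fits that left out a library (adjusted p at most 0.00220, log2 fold changes from -0.34 to -0.27), and by 0.23 without both control 3 and 4 (adjusted p = 0.00301, edgeR). Of its exon bases 4.52% overlap Rmc1 on the opposite strand, at 39.0 ± 1.48 CPM in control and 34.5 ± 0.684 CPM after So(d18:1) (SD, n = 4).

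Its partner Npc2 held a narrow range. Npc2 spanned 1227 to 1285 CPM in control and 1220 to 1332 CPM after So(d18:1), with a log2 fold change of 0.0057 and a 95% interval of -0.08 to 0.09. Stard4, which carries sterol through the cytosol, had a value of 0.03, and Soat1, which esterifies cholesterol for storage, spanned 475 to 499 CPM in control and 440 to 483 CPM after So(d18:1), for a value of -0.06. Of the 4 transport genes, Npc1 alone passed (25%, against 8.94% of all genes).

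The LXR genes held the other falls. Of the 7 genes, Nr1h3 and Mylip fell (28.6%, against 5.07% of all genes), 5 had an unadjusted p under 0.05 (against 23.4% of all genes), and the median log2 fold change was -0.21, with 5 genes below 0 and 2 above. Nr1h3 encodes LXRα. It was at 10.9, 11.1, 15.0 and 16.1 CPM in control and at 7.46, 8.51, 10.5 and 8.50 CPM after So(d18:1). So(d18:1) 3 came close to control 1 and 2, which lay well below control 3 and 4, yet the groups did not overlap. Nr1h3 fell by 0.60 on the log2 scale (SE 0.14, adjusted p = 0.0104, edgeR), from 13.3 ± 2.69 to 8.75 ± 1.28 CPM (SD, n = 4), the largest fall of the 35 genes. The call held in all 8 fits that left out a library (adjusted p at most 0.0490, log2 fold changes from -0.69 to -0.49). Without both control 3 and 4 the value was -0.33 and the call was lost (adjusted p = 0.160, edgeR), and without both control 1 and 2 it was -0.83 (adjusted p = 3.88e-05, edgeR).

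Nr1h2, which encodes LXRβ, was at 108, 93.0, 95.02 and 104 CPM in control and at 114, 117, 106 and 108 CPM after So(d18:1). Control 1 and the So(d18:1) libraries 3 and 4 lay together, and control 2 and 3 lay below them all. The log2 fold change was 0.15 (SE 0.052, adjusted p = 0.0738, edgeR), opposite in sign to that of Nr1h3, and without control 1 it was 0.19 and passed (adjusted p = 0.0389, edgeR). The difference between the receptors was not tested.

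Mylip encodes a ubiquitin ligase by which LXR limits lipoprotein uptake. It was at 68.7, 63.4, 92.1 and 83.0 CPM in control and at 54.5, 52.3, 54.6 and 58.1 CPM after So(d18:1). The So(d18:1) libraries were tightly grouped below control 2, the lowest control library, and control 3 and 4 stood apart above. Mylip fell by 0.48 on the log2 scale (SE 0.11, adjusted p = 0.0301, edgeR), from 76.8 ± 13.1 to 54.9 ± 2.40 CPM (SD, n = 4). With a library left out, the log2 fold change lay between -0.57 and -0.38 and the call was lost in 5 of 8 fits, those without control 4 or any of the So(d18:1) libraries, with adjusted p values of 0.0688 to 0.0785. Without both control 3 and 4 it was -0.27 and the call held (adjusted p = 0.00707, edgeR).

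Abcg1, the exporter that loads cholesterol onto mature HDL, was also highest in control 3 and lowest among the controls in control 2. It was at 48.8, 42.4, 68.3 and 54.5 CPM in control and at 39.1, 39.5, 39.6 and 36.6 CPM after So(d18:1). Control 3 was far above the rest, control 2 lay close to the So(d18:1) libraries, and the groups did not overlap. The log2 fold change was -0.47 (SE 0.14, adjusted p = 0.0778, edgeR), and it passed in DESeq2 (adjusted p = 0.00037) and in edgeR's likelihood ratio test (adjusted p = 0.00940) but not in limma-voom (adjusted p = 0.0933). It also passed without control 2 (-0.56, adjusted p = 0.00200, edgeR) or without control 3 (-0.33, adjusted p = 0.00618, edgeR). It was -0.24 without both control 3 and 4 (adjusted p = 0.0436, edgeR).

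**Figure D3:**
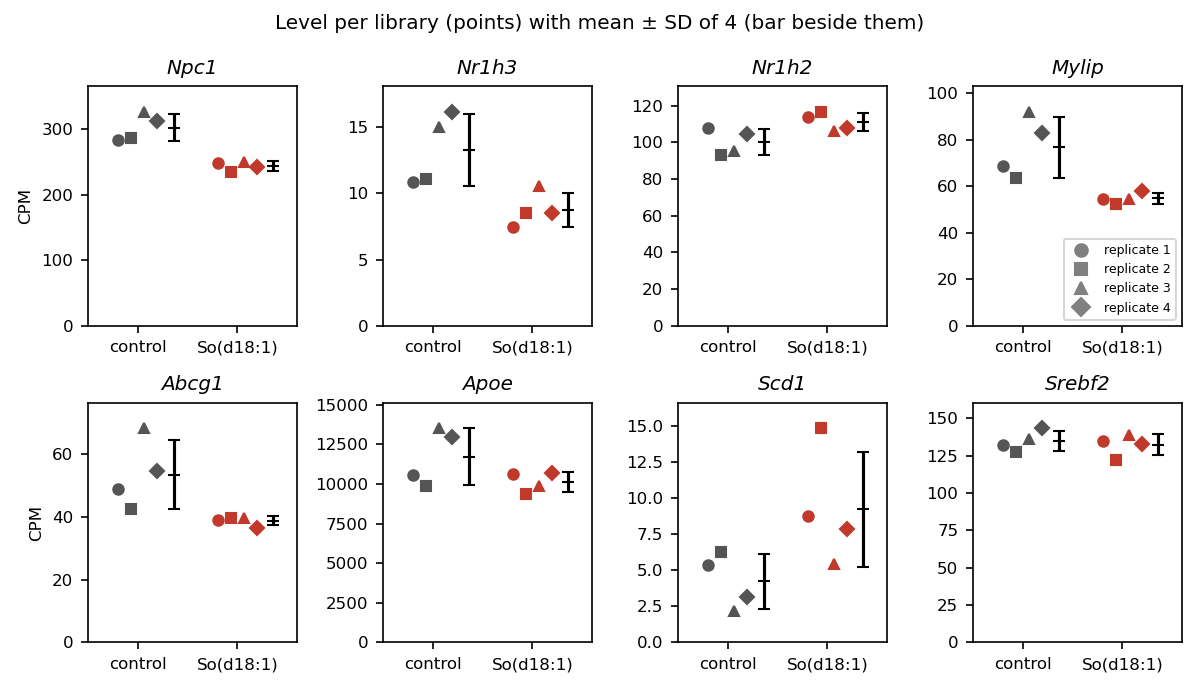
CPM of 8 of the genes in each library (points, marker shape by replicate number, which pairs nothing) with mean ± SD of the 4 libraries of each group beside them. The groups do not overlap in Npc1, Nr1h3, Mylip and Abcg1, and do overlap in Nr1h2, Apoe, Scd1 and Srebf2.

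Apoe, the apolipoprotein that macrophages secrete with exported lipid, was at 10565, 9893, 13518 and 12952 CPM in control and at 10634, 9335, 9883 and 10682 CPM after So(d18:1). Control 1 and 2 lay within the So(d18:1) range, and control 3 and 4 above it. The log2 fold change was -0.21 (SE 0.10, adjusted p = 0.271, edgeR), without control 2 it was -0.28 with an adjusted p of 0.0401, and without both control 1 and 2 it was -0.38 with an adjusted p of 5.5e-05 in edgeR. It was -0.015 without both control 3 and 4 (adjusted p = 0.927, edgeR). Abca1, the exporter to lipid-poor apolipoprotein, spanned 1124 to 1229 CPM in control and 1062 to 1164 CPM after So(d18:1), with a log2 fold change of -0.08 and a 95% interval of -0.17 to 0.01. Lpcat3, which remodels phospholipids under LXR control, had a value of 0.13 (adjusted p = 0.144, edgeR).

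Within the control group, the mean of control 3 and 4 exceeded that of control 1 and 2 by a log2 ratio of 0.50 in Nr1h3, 0.43 in Abcg1, 0.41 in Mylip and 0.37 in Apoe. The median of that ratio over the 7 LXR genes was 0.37, beside 0.0013 over all genes tested and 0.40 over the 7 neutrophil markers. Most of the genes tested lay between -0.43 and 0.44, a range that holds Abcg1, Mylip and Apoe but not Nr1h3. Control 3 was the highest of the 8 libraries for 12 of the 35 genes. The part of neutrophil RNA in the values of the LXR genes was not tested.

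Promoter windows of Mylip and Nr1h3 are shown because these were the LXR genes that fell. The Mylip window is on the plus strand at chr13:45389492-45389791 (GRCm38.p6), with 3 inverted CCAAT boxes at window positions 61, 143 and 184 in capitals. The Nr1h3 window is on the minus strand at chr2:91195067-91195366 (GRCm38.p6), 1 of the 2 windows of that gene, and none of the 4 motifs matched in either, so it has no capitals. Both windows lie inside the annotated gene, whose outermost start at chr2:91202834 was not searched.
Mylip: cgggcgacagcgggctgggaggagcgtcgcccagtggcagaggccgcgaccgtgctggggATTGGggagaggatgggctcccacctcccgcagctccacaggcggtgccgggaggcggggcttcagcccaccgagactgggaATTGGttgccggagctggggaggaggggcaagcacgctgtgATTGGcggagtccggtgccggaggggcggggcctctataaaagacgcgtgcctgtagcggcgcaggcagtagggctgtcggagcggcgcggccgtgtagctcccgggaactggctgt
Nr1h3: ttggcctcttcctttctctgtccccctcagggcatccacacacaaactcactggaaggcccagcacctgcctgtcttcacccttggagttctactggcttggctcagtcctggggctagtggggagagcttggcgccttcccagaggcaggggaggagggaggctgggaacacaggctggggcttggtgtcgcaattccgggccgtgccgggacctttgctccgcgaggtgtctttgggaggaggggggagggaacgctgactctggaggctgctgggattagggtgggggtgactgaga
Across the whole gene, Mylip lies at chr13:45389742-45412022 and shares no exon bases with another gene, and Nr1h3 lies at chr2:91184061-91202834 and shares 1.35% of its exon bases with Gm13783 on the same strand.

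**Figure D4:**
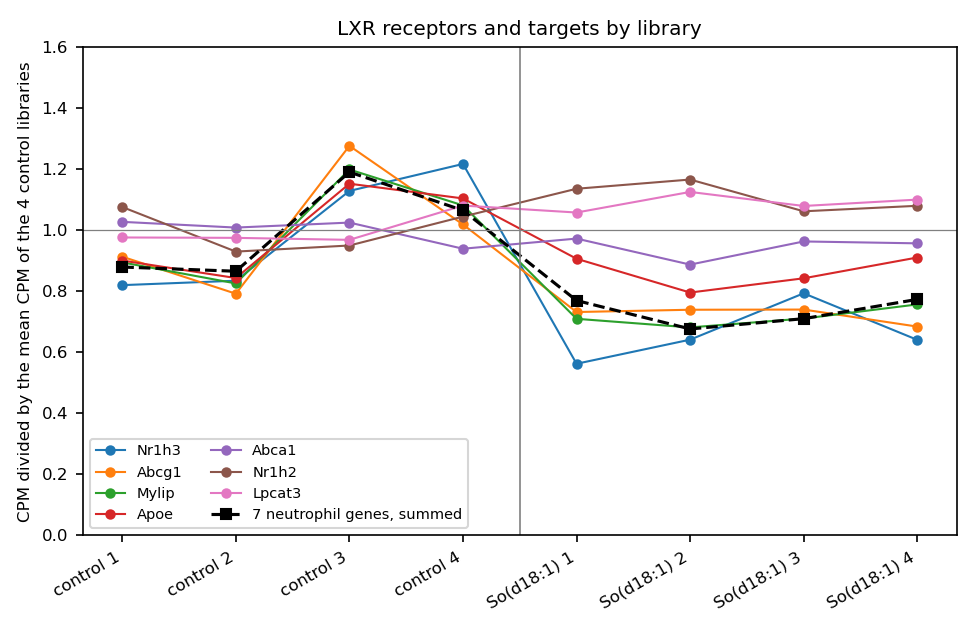
CPM of the 7 LXR genes and the summed CPM of 7 neutrophil markers (dashed, squares) in each library, each divided by its mean over the 4 control libraries. Nr1h3, Abcg1, Mylip, Apoe and the neutrophil sum are higher in control 3 and 4 than in control 1 and 2, while Nr1h2, Abca1 and Lpcat3 stay nearer to 1.

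Among the 4 lipogenic genes, Scd1 differed most in fold of all 35 genes and was also the most variable. It encodes a stearoyl-CoA desaturase, which makes monounsaturated fatty acids and is a shared target of SREBP1 and LXR. Scd1 was at 5.39, 6.25, 2.15 and 3.14 CPM in control and at 8.75, 14.8, 5.42 and 7.88 CPM after So(d18:1). So(d18:1) 3 lay between control 1 and 2, So(d18:1) 2 was far above all others, and control 3, the highest library for 3 of the LXR genes, was the lowest of all. The log2 fold change of 1.13 had an SE of 0.44 and did not pass (adjusted p = 0.184, edgeR), and the two-sided exact permutation test gave p = 0.0571. It was 0.66 without both control 3 and 4 and 1.81 without both control 1 and 2, and passed in neither fit (adjusted p = 0.545 and 0.120, edgeR). It met an unadjusted p under 0.05 with a fold change of at least 1.5, as did Nr1h3 and no other of the 35 genes, where 3.89% of all genes did. Scd1 was counted from 51 to 157 reads in a control library and from 104 to 328 after So(d18:1), and 4.56% of its 50-base words occur in other genes, Scd3 and Scd2 among them.

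Its relative Scd2 was far more abundant, at 12.3 against 0.865 RPKM in control, and spanned 62.5 to 72.1 CPM in control and 60.6 to 69.3 CPM after So(d18:1), a log2 fold change of -0.04. Fasn, the fatty acid synthase, had a value of -0.15 (adjusted p = 0.237, edgeR), which was -0.26 without both control 1 and 2 (adjusted p = 0.0191) and -0.021 without both control 3 and 4 (adjusted p = 0.917). Acaca, the acetyl-CoA carboxylase, had a value of -0.01 with a 95% interval of -0.15 to 0.12. None of the 4 passed in edgeR's quasi-likelihood test, DESeq2, limma-voom or the likelihood ratio test. Scd1 alone had an unadjusted p under 0.05 (against 23.4% of all genes).

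Other genes of these pathways, 111 in 6 lists of which 96 were tested, gave 16 calls, 6 rises and 10 falls (16.7%, against 8.94% of all genes). Their median log2 fold change was 0.0041. Of 12 other sterol synthesis genes tested, 1 was called (8.33%, near the 8.94% of all genes). It was Tm7sf2, a sterol reductase, which rose by 0.37 (adjusted p = 0.0228, edgeR). The call of Tm7sf2 was lost without control 3, control 4, So(d18:1) 1 or So(d18:1) 2, at log2 fold changes of 0.34 to 0.37 and an adjusted p of up to 0.0615 in edgeR, and without both control 3 and 4 (0.33, adjusted p = 0.136). None of 18 genes of SREBP processing and degradation passed in edgeR's quasi-likelihood test, DESeq2, limma-voom or the likelihood ratio test. Of the 18, 2 had an unadjusted p under 0.05 (against 23.4% of all genes).

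Sterol transport and ester hydrolysis held 5 falls and 1 rise among 24 genes tested (25% in all, where 5.07% of all genes fell and 3.87% rose). Gramd1b, which carries plasma membrane cholesterol to the endoplasmic reticulum, was at 76.1 to 81.2 CPM in control and 55.7 to 59.1 CPM after So(d18:1) and fell by 0.45 on the log2 scale (SE 0.047, adjusted p = 2.01e-06, edgeR). Osbpl11, of the oxysterol-binding protein family, fell by 0.27 (adjusted p = 0.000122, edgeR). The groups were far apart in both, and control 3 and 4 did not stand apart from control 1 and 2, with log2 ratios of 0.05 and 0.02. The others are named after their values were seen. Lipa, the lysosomal acid lipase that frees cholesterol from its esters upstream of Npc1, fell by 0.29 (adjusted p = 0.000663, edgeR), Nceh1, a neutral cholesteryl ester hydrolase, by 0.26, and Osbpl1a by 0.32, while the lipid exporter Abca7 rose by 0.22. Osbpl1a was not called without control 2, control 4 or So(d18:1) 2, 3 or 4 (-0.32 to -0.27, adjusted p up to 0.0798, edgeR) or without both control 3 and 4 (-0.31, adjusted p = 0.0822), nor Abca7 without So(d18:1) 1 (0.18, adjusted p = 0.0625, edgeR).

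Of 17 other LXR targets and partners tested, 4 fell and 1 rose (29.4%, against 8.94% of all genes), with a median log2 fold change of -0.20. Pparg, a nuclear receptor known upstream of Nr1h3 in macrophages, was at 11.1, 9.71, 12.1 and 11.6 CPM in control and at 5.05, 4.57, 5.99 and 6.40 CPM after So(d18:1). Its groups were widely separated, all 4 control libraries lay close together, and it fell by 1.01 on the log2 scale (SE 0.12, adjusted p = 9.82e-06, edgeR). Mertk, a receptor for dying cells that LXR induces, fell by 0.38 (SE 0.043, adjusted p = 6.20e-06, edgeR), from 209.8 to 161.7 CPM. Pltp, the phospholipid transfer protein, had a value of -0.22 (adjusted p = 0.116, edgeR), or -0.26 without control 2, where it passed (adjusted p = 0.0496, edgeR). Without both control 1 and 2 Pltp was at -0.32 (adjusted p = 0.0213), and without both control 3 and 4 at -0.11 (adjusted p = 0.447, edgeR). Named after their values were seen, Lpl, the lipoprotein lipase, fell by 0.60 (adjusted p = 0.0327, edgeR), and the small GTPase Arl4c rose by 0.21 (adjusted p = 0.00582, edgeR). The call of Lpl was lost without control 1, control 4 or So(d18:1) 2, 3 or 4 (-0.63 to -0.56, adjusted p up to 0.0919, edgeR), but held at -0.42 without both control 3 and 4 (adjusted p = 0.0105) and at -0.77 without both control 1 and 2 (adjusted p = 0.00044, edgeR). Arl4c was not called without both control 1 and 2 (0.15, adjusted p = 0.0597, edgeR).

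**Figure D5:**
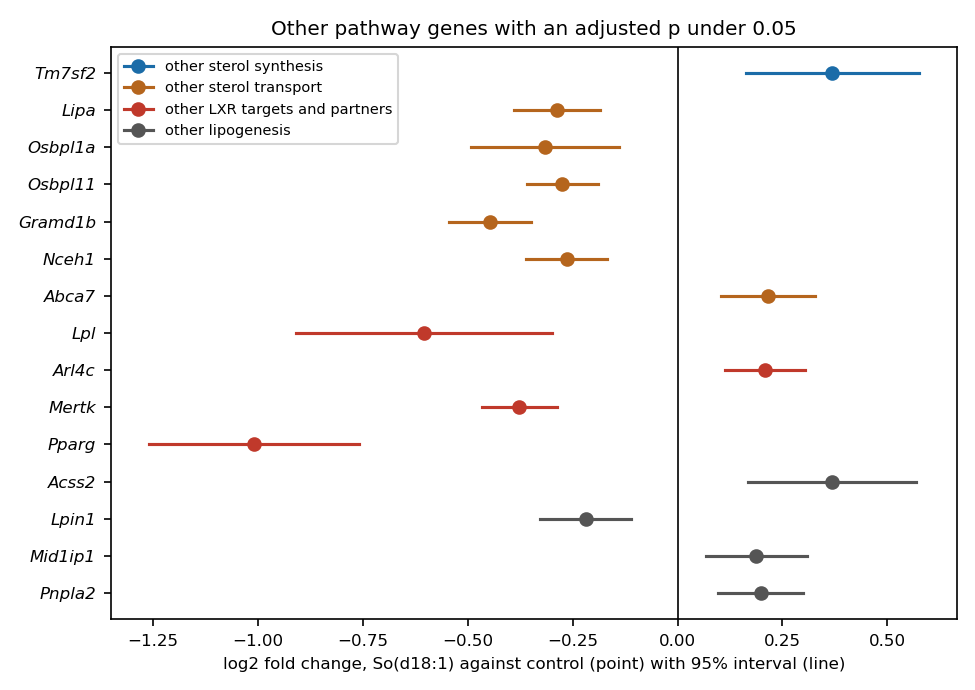
15 of the 16 other pathway genes with an adjusted p under 0.05 in edgeR, as log2 fold change of So(d18:1) against control with its 95% interval, coloured by list. Pparg at -1.01 lies farthest from 0, and 6 genes lie above 0.

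Of the 7 oxysterol enzymes, 2 had enough counts to be tested and neither passed in edgeR's quasi-likelihood test. Of these 2, 1 had an unadjusted p under 0.05 (against 23.4% of all genes). The likelihood ratio test called 1, and DESeq2 and limma-voom called 0. Ch25h, which makes an oxysterol from cholesterol, was read 0 to 4 times per library. Of 23 genes tested in the other lipogenesis list, which also holds the triglyceride lipase Pnpla2, 3 rose and 1 fell (17.4%, against 8.94% of all genes). Lpin1, a phosphatidate phosphatase, fell by 0.22 (adjusted p = 0.0104, edgeR), and Pnpla2, a triglyceride lipase, rose by 0.20 (adjusted p = 0.0127, edgeR), a call lost without both control 1 and 2 (0.15, adjusted p = 0.0675). Acly, which supplies cytosolic acetyl-CoA, had a value of 0.0058. Acss2, which makes acetyl-CoA from acetate, rose by 0.37 and Mid1ip1, a partner of the carboxylase, by 0.19, and both are named after their values were seen. The call of Acss2 was lost without control 3, control 4 or So(d18:1) 1 or 4 (0.31 to 0.36, adjusted p up to 0.0798, edgeR), and that of Mid1ip1 in all fits with a library left out except those without control 4 or So(d18:1) 3 (0.17 to 0.19, adjusted p up to 0.118, edgeR). Without both control 3 and 4, Acss2 was at 0.29 (adjusted p = 0.157) and Mid1ip1 at 0.22 (adjusted p = 0.0540), and without both control 1 and 2 Mid1ip1 was at 0.15 (adjusted p = 0.164, edgeR).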

How the data were processed

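Poly(A) RNA of 4 So(d18:1) and 4 control BMDM cultures was sequenced. Per the labels and the methods, reads were trimmed (Trim Galore 0.6.7), aligned to mm10 (HISAT2 2.2.1) and counted (featureCounts 2.0.1), and the deposited values are raw whole-number counts per gene, with no normalization by the authors. Strand setting and multimapping are not given in the sources used here. Symbols came from GENCODE M21 (GRCm38), which named 52081 of 55357 identifiers. Here, counts were filtered by filterByExpr, scaled by TMM (R 4.3.3, edgeR 4.0.16, limma 3.58.1) and compared by edgeR's quasi-likelihood test (robust) with Benjamini-Hochberg adjustment over 14514 genes. The SE of a log2 fold change is its absolute size over the root of the F statistic. The procedure was tested on simulated counts. DESeq2 1.42.0 served as an alternative, as did other scalings, filters and tests, a replicate block and leaving out libraries. Total counts were 17748397 to 26088609 per library, and the 4 libraries per group set the precision. Plots used Python 3.11.15 and matplotlib 3.10.9.

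The genes, the other pathway lists and the marker lists were chosen with earlier results of these data known. Every listed gene is named. Values per library are given for genes with an adjusted p under 0.05, for Srebf1, Srebf2, Nr1h3 and Nr1h2, and for the largest change in each role. Those for Hmgcs1, Idi1, Abcg1 and Apoe were added after their values were seen. Of each other list, the 2 smallest p among calls are named, plus Acly, Ch25h and Pltp, and 2 genes of these lists are not reported here. Promoter windows are RefSeq's (GRCm38.p6). Faxdc2 was not analysed here.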

Additional observations from a re-analysis of the deposited data

Results flagged for a closer look

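In 5 of 70 groups of 4 libraries (35 genes in 2 groups), the highest or lowest library stood apart from the others, by the gap to its nearest neighbour divided by the group's range, where chance gives about 1 in 20, or 3.5 groups. Hmgcs1 in control 4 had a ratio of 0.872, at a log2 CPM of 6.24 against 6.32 to 6.33 in the other control libraries. Lpcat3 in control 4 had a ratio of 0.927, at 5.83 against 5.67 to 5.68. In So(d18:1) 4, the ratio was 0.917 for Dhcr7 (4.44 against 4.22 to 4.24), 0.923 for Npc2 (10.38 against 10.25 to 10.26) and 0.860 for Abcg1 (5.20 against 5.29 to 5.31). None of these 5 genes was called. Leaving out So(d18:1) 4 gave log2 fold changes of -0.44 for Abcg1, -0.14 for Dhcr7 and -0.03 for Npc2, of which the last changed sign, and leaving out control 4 gave -0.15 for Hmgcs1 and 0.17 for Lpcat3.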

How the results depend on the processing

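Npc1 fell with an adjusted p under 0.05 under every alternative run, and Nr1h3 under all but the loss of both control 3 and 4. Of 35 genes, 17 kept direction and side of the threshold in all 11 alternatives other than leaving out a library. The count of calls among the 35 genes, 3, became 6 with no filter on low counts, 9 with the replicate block, 5 in edgeR's likelihood ratio test, 5 in DESeq2 and 7 without both control 1 and 2, and 2 to 5 with a library left out. The cause of these moves was not tested. Same-numbered libraries did not deviate together (correlations -0.0035 to 0.10, 3 of 8 libraries best with their own number), so the replicate block is no pairing. It gave 5 LXR genes, 1 mevalonate gene, 1 squalene to cholesterol gene, 1 lipogenic gene (Scd1 at 1.14, whose 4 libraries had the same order by number in both groups), 3 other sterol synthesis genes, 11 other LXR genes and 1 oxysterol gene. No filter gave 4 LXR genes, 1 squalene to cholesterol gene, 2 other sterol synthesis genes, 9 other LXR genes and 1 oxysterol gene. For mevalonate genes the count of 0 became 1 under upper quartile scaling, at least 10 counts in every library, the likelihood ratio test and DESeq2. Other sterol synthesis gave 2 in the likelihood ratio test and in DESeq2, other LXR genes 10 in DESeq2, and oxysterol enzymes 1 in the likelihood ratio test. Without both control 1 and 2 there were 4 LXR genes, 1 squalene to cholesterol gene, 1 lipogenic gene, 3 other sterol synthesis genes, 1 gene of SREBP processing, 9 other LXR genes, 1 oxysterol gene and 7 other lipogenic genes. Without both control 3 and 4 there were 865 genes in all against 1298, 1 of SREBP control and 2 other lipogenic genes. With calls set by a fold of 1.5 or more beside an unadjusted p under 0.05 there were 564 genes in all, 1 LXR gene (Nr1h3), 1 lipogenic gene (Scd1) and 0 transport genes.

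With a library left out, calls numbered 815 (without So(d18:1) 2) to 1370 (without control 2) over all genes, 0 to 1 for mevalonate and for squalene to cholesterol genes, 1 to 4 for LXR genes, 0 to 2 for other sterol synthesis, 0 to 1 for SREBP processing, 5 to 6 for other transport, 3 to 8 for other LXR genes, 0 to 1 for oxysterol enzymes and 2 to 5 for other lipogenic genes. The sign turned in 10 genes near 0 with a library left out, and in these under other alternatives. Lss gave 0.00030 with library size alone and 0.094 without both control 1 and 2, where Sc5d gave 0.0012, Insig1 0.015, Npc2 -0.011 and Acaca 0.025. Without both control 3 and 4, Nsdhl gave -0.020, Srebf2 0.026, Insig2 -0.051, Stard4 -0.072 and Acly -0.022. Upper quartile scaling gave Npc2 -0.0065 and Acly -0.0066, and at least 10 counts gave -0.00048 and -0.00032. With a library left out, the values ran from -0.020 to 0.13 in Mvk, -0.058 to 0.047 in Lss, -0.022 to 0.087 in Nsdhl, -0.039 to 0.019 in Sc5d, -0.055 to 0.0086 in Srebf2, -0.0022 to 0.10 in Insig2, -0.010 to 0.094 in Stard4, -0.025 to 0.021 in Npc2, -0.049 to 0.031 in Acaca and -0.0087 to 0.030 in Acly. Scd1 stayed between 0.80 and 1.40 with a library left out. Fdps rests on 28 to 74 counts per library, and the cause of its wide interval was not tested.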

Other observations

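Por, the reductase that passes electrons to Cyp51 and Sqle, was named after its values were seen. It was at 103, 94.5, 144 and 133 CPM in control and at 83.7, 80.8, 87.0 and 87.4 CPM after So(d18:1), so that control 3 and 4 stood above control 1 and 2 by a log2 ratio of 0.49, as in Nr1h3, Abcg1 and Mylip. Its log2 fold change was -0.49 (SE 0.14, adjusted p = 0.0866, edgeR's quasi-likelihood test), and the groups did not overlap.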
